A study of Mus musculus with 18 samples.

Results

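The synaptic vesicle release genes are 36 genes of the presynaptic terminal, chosen as a fixed list by symbol: the SNARE proteins, their calcium sensors and regulators, the active zone scaffold, the synapsins, vesicle membrane proteins, vesicular glutamate transporters, and the proteins that take SNARE complexes apart or retrieve membrane. All 36 were found among the 55416 genes of the count table, and all 36 were among the 17174 genes tested. They were read by bulk RNA-seq of brain tissue resected around experimental brain metastases, the peritumoral area, in 18 mice. The melanoma model was made with B16-F10-BrM4 cells, the breast cancer model with EO771-BrM3 cells and the lung cancer model with 482N1 cells, with 6 brains each. All mice had the genotype WT, received 40000 cells and were killed 10 days later, and no sham or tumour-free brain is among the samples analysed here. The sources used here do not name the strain, the age or the route of injection. Each model rests on 1 cell line, so that the cancer type and the line cannot be told apart. The design compared the tissue next to metastases of different origin.

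A nerve terminal releases transmitter when a vesicle docked at the active zone fuses with the plasma membrane. Fusion is driven by the SNARE complex of a vesicle protein, synaptobrevin (Vamp1, Vamp2), with syntaxin (Stx1a) and Snap25 on the target membrane. Munc13 (Unc13a, Unc13b) and RIM (Rims1, Rims2) prepare the vesicle, complexin (Cplx1, Cplx2) holds the primed complex, and synaptotagmins sense the calcium that triggers release. Nsf and its adaptor Napb then separate the spent SNARE complex, and dynamin (Dnm1), amphiphysin (Amph) and synaptojanin (Synj1) serve the recovery of membrane by endocytosis. In brain these genes are known as genes of neurons and, in part, of endocrine and other secretory cells.

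The promoters of 3 members are shown. Syn2 and Slc17a7 were called lower in breast than in lung. Syn1, the neuronal relative of Syn2, was not called, although its fold change was close to that of Syn2. Of the 36 members 28 had a promoter in the RefSeq table (build GRCm38.p6), with 39 start sites. The sequences cover the 250 bases before the start site, and their capitals mark matches to a motif on either strand. Syn1 lies at chrX:20920919-20921168 on the minus strand, Syn2 at chr6:115134652-115134901 and Slc17a7 at chr7:45163671-45163920, both on the plus strand.
Syn1: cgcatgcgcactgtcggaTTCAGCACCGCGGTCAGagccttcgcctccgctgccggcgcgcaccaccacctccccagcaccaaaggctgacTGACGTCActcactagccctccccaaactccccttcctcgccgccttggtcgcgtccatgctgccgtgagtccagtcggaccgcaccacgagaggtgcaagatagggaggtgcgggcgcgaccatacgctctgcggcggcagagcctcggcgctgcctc
Syn2: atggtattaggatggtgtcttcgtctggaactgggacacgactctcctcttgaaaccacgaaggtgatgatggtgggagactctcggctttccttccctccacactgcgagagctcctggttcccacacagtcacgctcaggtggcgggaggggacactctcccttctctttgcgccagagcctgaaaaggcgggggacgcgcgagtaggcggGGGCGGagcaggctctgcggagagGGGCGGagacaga
Slc17a7: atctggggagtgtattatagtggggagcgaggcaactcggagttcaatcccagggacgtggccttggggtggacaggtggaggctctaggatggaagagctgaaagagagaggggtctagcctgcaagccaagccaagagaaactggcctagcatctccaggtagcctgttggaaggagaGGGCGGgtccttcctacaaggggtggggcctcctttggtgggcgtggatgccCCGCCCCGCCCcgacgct
Syn1 held a match with 1 mismatch to RE1, the element bound by the repressor REST in non-neuronal cells, at -232 to -216 from the start. It also held the cyclic AMP response element TGACGTCA at -159 to -152. Syn2 and Slc17a7 held the GC box GGGCGG, Syn2 at -37 to -32 and -13 to -8, and Slc17a7 at -70 to -65, -18 to -13 and -13 to -8, where the last pair share 1 base. RE1 with at most 2 mismatches was found in 5.13% of the 39 windows of members (Syn1 and Rph3a) and in 0.107% of all 32851 windows of the table. The GC box was found in 51.3% of the windows of members and in 32.7% of all, and the cyclic AMP response element in 2.56% and 1.55%. These matches describe the letters and are no evidence of binding, and their relation to the fold changes was not tested.

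The libraries held 10669355 to 13396710 counts in the melanoma model, 7366250 to 13544054 in the breast model and 12070005 to 14533877 in the lung model. Levels are given as CPM, the counts of a gene scaled to a common library total, on TMM-scaled library sizes. Markers of neurons, astrocytes and oligodendrocytes were read in all 18 libraries. Of the 12 pan-neuronal markers 11 were tested and Tubb3 had no read in any library, and markers of hindbrain and spinal cord were near the floor. In bulk tissue fewer neurons and less RNA per neuron cannot be told apart. The summed level of 6 melanocyte markers, which melanoma cells share, was 3651 to 22827 CPM in melanoma libraries, 1.35 to 8.27 in breast libraries and 1.58 to 4.07 in lung libraries. That of 6 epithelial markers was 4.78 to 5.78 CPM in melanoma, 66.2 to 167 in breast and 309 to 1316 in lung libraries, without overlap between the models. Markers of microglia and macrophages summed to 184 to 339 CPM in melanoma, 695 to 1152 in breast and 713 to 1295 in lung libraries. Those of astrocytes summed to 1688 to 2356 CPM in melanoma, 3466 to 4400 in breast and 3650 to 5378 in lung libraries, without overlap of melanoma with the others. Their part in the values of the release genes was not tested. The slope of log2 CPM with each doubling of transcript length was -0.29 in melanoma replicate 3, -0.29 in breast replicate 18 and -0.23 in breast replicate 19. The other libraries had slopes of 0.05 to 0.21 in melanoma, -0.01 to 0.09 in breast and -0.13 to 0.16 in lung. Long genes were thus read least well in these 3 libraries. Without them the melanoma slopes still reached higher than those of breast and lung. Counts of calls, medians and the relation to length are given with and without these 3 libraries.

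The genes were strongly read in every model. Together they took 0.699% to 1.84% of all CPM in a library. Per kilobase of transcript, Snap25 was the most abundant, with a mean of 927 CPM per kilobase in melanoma libraries, 705 in breast libraries and 850 in lung libraries. The vesicle protein synaptophysin, Syp, followed with 487 CPM per kilobase in melanoma, 398 in breast and 492 in lung libraries. Vamp2 had 308 in melanoma, 242 in breast and 306 in lung libraries, and the small GTPase Rab3a 258 in melanoma, 218 in breast and 261 in lung libraries. The transporter Slc17a7 had 248 CPM per kilobase in melanoma, 182 in breast and 281 in lung libraries. At the other end stood Syn3 with 1.63 in melanoma, 1.20 in breast and 1.49 in lung libraries. Unc13b had 1.46 CPM per kilobase in breast libraries and Sv2c 1.82. The range from Snap25 to Syn3 held in all 3 models, whereas Vamp2, Rab3a and Slc17a7 lay within each other's spread.

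Between the models few of these genes passed the test, although most leaned the same way. In melanoma against lung 1 of 36 was called, Syt4, higher in melanoma, where 23.2% of all genes tested were called, 8.51% higher and 14.7% lower (edgeR's quasi-likelihood test with Benjamini-Hochberg adjustment, adjusted p under 0.05). In breast against lung 3 of 36 were called, all lower in breast (Syn2, Slc17a7 and Syt5), against 18.3% of all genes, 11.2% higher and 7.16% lower. In melanoma against breast 4 of 36 were called, all higher in melanoma (Syt4, Napb, Snap25 and Sv2b), against 28.9% of all genes, 9.76% higher and 19.2% lower. The members were thus called less often than all genes in either direction by these counts, and about as often in the direction of their own calls in breast against lung and melanoma against breast. With only the 12 libraries of melanoma and breast in the fit, Syt4 alone was called between them. The median log2 fold change of the 36 genes was 0.16 in melanoma against lung, -0.27 in breast against lung and 0.46 in melanoma against breast, beside 0.02, -0.02 and 0.04 over all genes tested. Of the 36 genes 30, 0 and 36 had a log2 fold change above 0 in these comparisons, against 52.5%, 47.6% and 53.0% of all genes. Without melanoma replicate 3 and breast replicates 18 and 19 the medians were 0.29 in melanoma against lung, -0.17 in breast against lung and 0.50 in melanoma against breast, with 33, 5 and 36 of 36 genes above 0. With each library's trend of level with transcript length removed, the medians were smaller in both melanoma comparisons. They were then 0.08, -0.26 and 0.35 in the same order, with 27, 1 and 36 of 36 genes above 0. Leaving out 1 library at a time moved the median between 0.07 (without melanoma replicate 6) and 0.29 (without melanoma replicate 3) in melanoma against lung. It moved between -0.34 (without lung replicate 9) and -0.18 (without lung replicate 10) in breast against lung, and between 0.41 (without breast replicate 18) and 0.64 (without melanoma replicate 3) in melanoma against breast. The 3 comparisons share libraries, and the genes share each library's composition, so that these counts are no independent repeats.

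**Figure D1:**
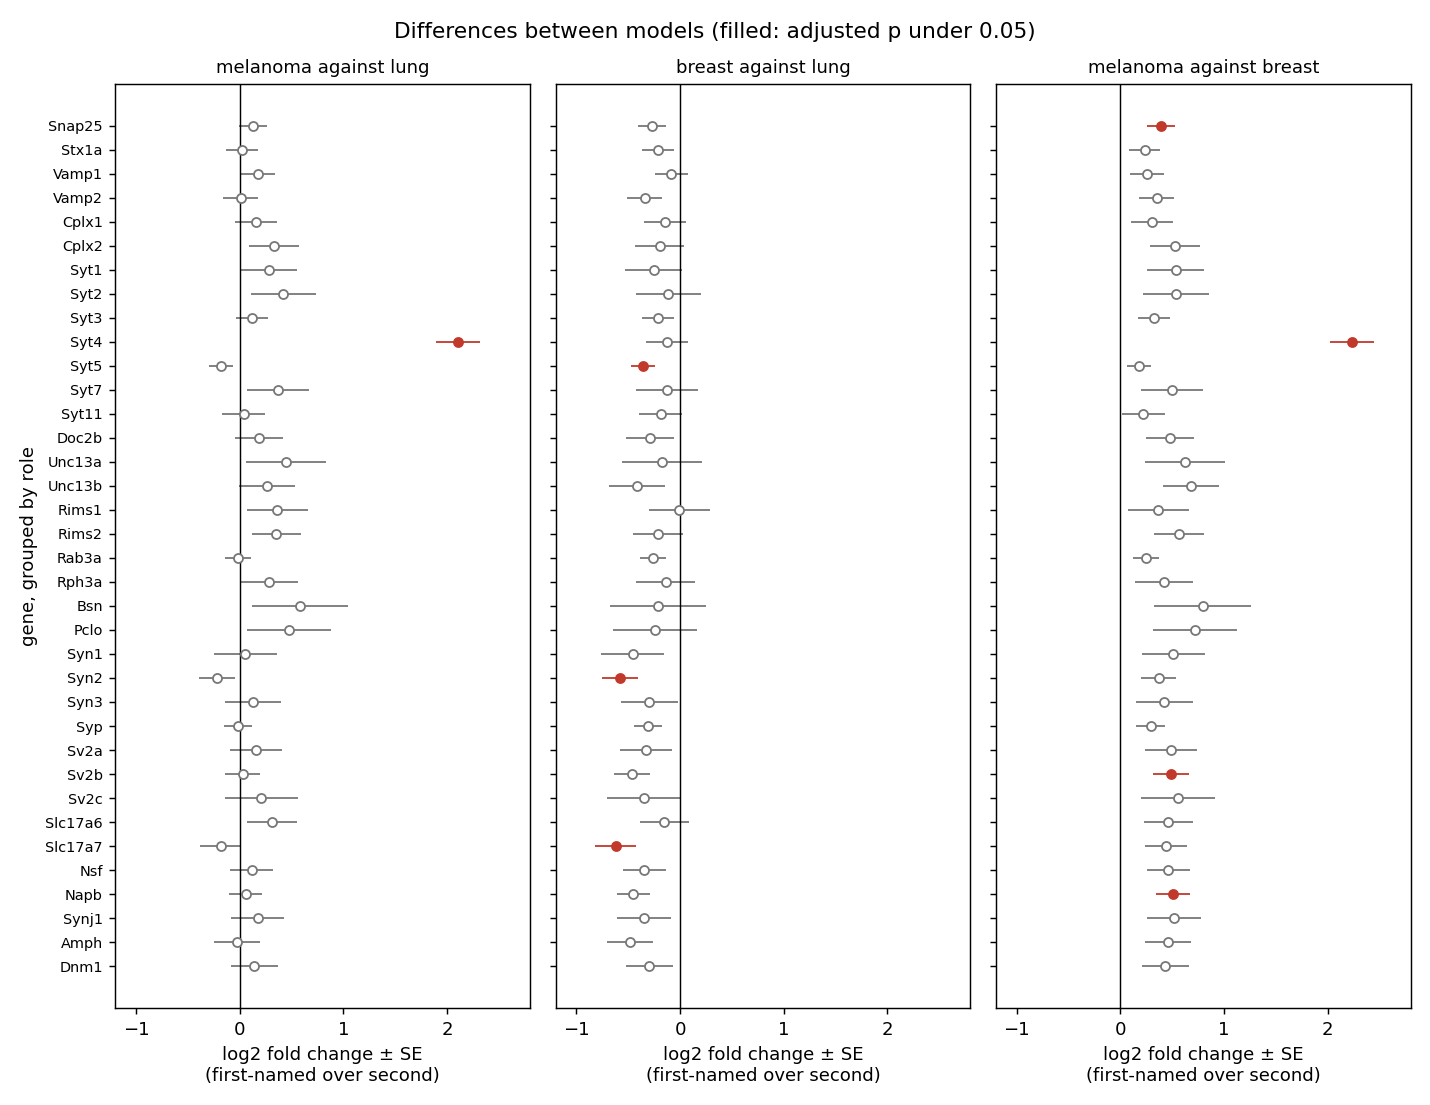
Log2 fold change of each of the 36 genes with its standard error in 3 comparisons, the first-named model over the second, with genes grouped by role down the page and filled points for an adjusted p under 0.05. Syt4 stands alone at about 2 in both melanoma comparisons, and the other genes lie between -0.62 and 0.79.

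The plot of fold changes shows the members by role, with bars of 1 standard error. In melanoma against lung Syt4 was the only member with an unadjusted p under 0.05 (edgeR's quasi-likelihood test). The half-width of the 95% interval of a log2 fold change was 0.24 to 0.98 for the genes other than Syt4. A difference smaller than a gene's half-width was not told from 0 with 6 libraries a model. These intervals are not adjusted for the number of genes tested, and some larger differences were not called either. In breast against lung 7 members had an unadjusted p under 0.05 by edgeR's quasi-likelihood test, and 3 were called.

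All 4 SNARE genes had their lowest mean in breast libraries, and Snap25 in melanoma against breast was their single call. Snap25, the target-membrane SNARE that is cleaved by botulinum toxin A in nerve terminals, had a lowest, median and highest level of 1419, 1951 and 2492 CPM in melanoma libraries, 1231, 1551 and 1632 CPM in breast libraries, and 1504, 1837 and 2014 CPM in lung libraries. The ranges overlapped, with 5 of 6 melanoma libraries above every breast library. In melanoma against breast the log2 fold change was 0.39 ± 0.13 (SE, edgeR adjusted p = 0.0325), while against lung it was 0.12 ± 0.13 for melanoma and -0.27 ± 0.13 for breast, neither called. The Snap25 call was lost without breast replicate 16 (edgeR adjusted p = 0.0702). The syntaxin gene Stx1a averaged 176 ± 36.9 CPM in melanoma libraries, 150 ± 27.1 in breast libraries and 174 ± 24.7 in lung libraries (SD, n = 6 each). Vamp2, the main synaptobrevin of forebrain, averaged 679.6 ± 190.5 CPM in melanoma, 533 ± 85.6 in breast and 676 ± 81.6 in lung libraries, and its relative Vamp1 158 ± 39.6 CPM in melanoma, 132 ± 22.3 in breast and 139.7 ± 19.2 in lung libraries. No difference of Stx1a, Vamp1 or Vamp2 passed the test.

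Napb, the neuronal adaptor that recruits the ATPase Nsf to SNARE complexes, had a lowest, median and highest level of 295, 416 and 511 CPM in melanoma libraries, 196, 303 and 327 CPM in breast libraries, and 335, 375 and 483 CPM in lung libraries. Every breast library lay below every lung library, and the melanoma range reached into the breast range. Napb was higher in melanoma than in breast by a log2 fold change of 0.51 ± 0.16 (SE, edgeR adjusted p = 0.0216), and against lung the breast value of -0.45 ± 0.16 missed the threshold (edgeR adjusted p = 0.0591). It was also 1 of the 3 members that passed the test of any difference among the models, with Syn2 and Syt4, against 35.8% of all genes tested. Nsf itself averaged 746 ± 227 CPM in melanoma libraries, 542 ± 131 in breast libraries and 688 ± 111 in lung libraries (SD, n = 6 each), and no difference of it was called.

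The calcium sensors held the largest difference of the whole list. Syt4, a synaptotagmin with a calcium-binding domain that differs from that of Syt1 and that is known from dense-core vesicles, averaged 639 ± 240 CPM in melanoma libraries, 136 ± 11.8 in breast libraries and 148 ± 29.6 in lung libraries (SD, n = 6 each). Its melanoma libraries had 759, 779, 987, 516, 404 and 391 CPM in replicates 1 to 6, against 117 to 149 CPM in breast libraries and 108 to 186 CPM in lung libraries. The melanoma model overlapped neither of the others. The log2 fold change was 2.11 ± 0.21 in melanoma against lung (SE, edgeR adjusted p = 2.90e-07) and 2.24 ± 0.21 in melanoma against breast (edgeR adjusted p = 1.27e-07). Breast and lung did not differ by the test (-0.13 ± 0.20, edgeR adjusted p = 0.724). Levels without overlap, in either direction, were found for 14.3% of all genes in melanoma against lung and 17.1% in melanoma against breast.

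Within the melanoma model Syt4 ran with the melanocyte markers and against the other release genes. The mean log2 level of the 6 melanocyte markers was 10.3, 10.1, 10.99, 9.24, 8.59 and 8.23 in melanoma replicates 1 to 6, highest and lowest in the same libraries as Syt4. The mean log2 level of the 35 members other than Syt4 was 7.45, 7.57, 6.70, 8.08, 8.18 and 8.20 in those libraries. Melanoma replicate 3 thus had the highest level of Syt4 and of melanocyte markers and the lowest of the other members. The part of tumour cells in the level of Syt4 was not tested.

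Syt1, the main calcium sensor of fast release in forebrain, had a lowest, median and highest level of 387, 998 and 1347 CPM in melanoma libraries, 349, 705 and 838 CPM in breast libraries, and 536, 734 and 1128 CPM in lung libraries. The 3 ranges overlapped widely and no difference of Syt1 was called. Syt2, the fast sensor of hindbrain and of some fast-spiking interneurons, averaged 44.7 ± 19.7 CPM in melanoma, 30.7 ± 9.99 in breast and 33.3 ± 10.4 in lung libraries (SD, n = 6 each). Syt7, a high-affinity sensor of slow and asynchronous release, averaged 204 ± 89.8 CPM in melanoma, 144 ± 42.4 in breast and 158 ± 44.2 in lung libraries, and the double-C2-domain protein Doc2b 46.7 ± 17.9 CPM in melanoma, 33.5 ± 3.90 in breast and 41.1 ± 10.2 in lung libraries. Syt3 averaged 43.6 ± 8.48 CPM in melanoma, 34.7 ± 5.32 in breast and 40.2 ± 7.41 in lung libraries, and Syt11, which does not bind calcium, 675 ± 214 CPM in melanoma, 579 ± 118 in breast and 658 ± 117 in lung libraries. None of these 5 genes passed in any comparison. Syt5 averaged 132 ± 21.6 CPM in melanoma libraries, 117 ± 16.6 in breast libraries and 149.8 ± 8.34 in lung libraries. It was lower in breast than in lung by a log2 fold change of -0.36 ± 0.12 (SE, edgeR adjusted p = 0.0348), although breast replicate 19, at 147 CPM, lay inside the lung range of 141 to 164 CPM. The call of Syt5 was lost when any of lung replicates 8, 9, 10 and 11 or breast replicates 14, 16, 17 and 18 was left out, with the fold change between -0.37 and -0.34, and also without the filter on low counts (edgeR adjusted p = 0.0806).

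**Figure D2:**
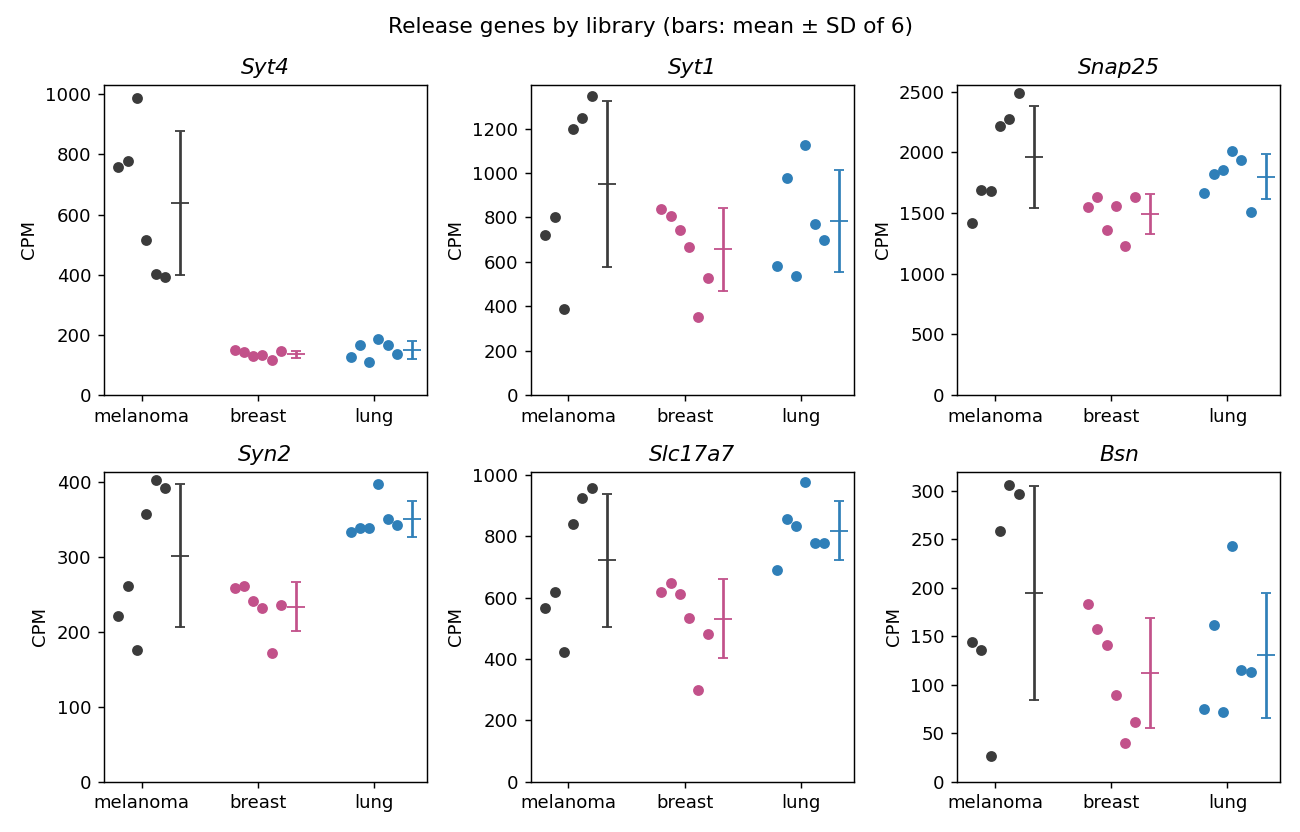
CPM of 6 release genes in each library of the melanoma, breast and lung models, points ordered by replicate number, with the mean and SD of 6 libraries beside them. Syt4 separates melanoma from both other models, Syn2 and Slc17a7 separate breast from lung, and Syt1, Snap25 and Bsn overlap between all models.

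The synapsins, which tether vesicles in the reserve pool, were lowest in breast libraries by their means, and Syn2 passed the test. Syn2 had a lowest, median and highest level of 175, 309 and 402 CPM in melanoma libraries, 172, 239 and 261 CPM in breast libraries, and 333, 341 and 397 CPM in lung libraries. Every breast library lay below every lung library, and the melanoma libraries spanned both ranges, with replicates 1 to 3 below the lung range. The log2 fold change was -0.58 ± 0.17 in breast against lung (SE, edgeR adjusted p = 0.0235), -0.22 ± 0.17 in melanoma against lung and 0.37 ± 0.17 in melanoma against breast, the last pair not called. Without lung replicate 10, the library with the highest Syn2 level of its model, the breast value was -0.55 and missed the threshold (edgeR adjusted p = 0.0525). Syn1 averaged 323 ± 132 CPM in melanoma libraries, 226 ± 81.9 in breast libraries and 311 ± 80.2 in lung libraries (SD, n = 6 each). Its fold change in breast against lung, -0.46 ± 0.30, was close to that of Syn2 but with a wider error and was not called (edgeR adjusted p = 0.352). Syn3, the least abundant of the 36 genes, averaged 6.54 ± 2.35 CPM in melanoma, 4.82 ± 1.48 in breast and 5.97 ± 1.87 in lung libraries.

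Slc17a7, the vesicular glutamate transporter VGLUT1 of cortical and hippocampal neurons, showed the largest fall of the list in breast against lung. Its lowest, median and highest levels were 423, 729 and 957 CPM in melanoma libraries, 300.2, 572 and 649 CPM in breast libraries, and 692, 805 and 977 CPM in lung libraries. No breast library reached the lung range, and melanoma replicates 1 to 3 also lay below it. The log2 fold change in breast against lung was -0.62 ± 0.20 (SE, edgeR adjusted p = 0.0356), and the call was lost without lung replicate 8, 9, 10 or 13 or breast replicate 17, with the fold change between -0.64 and -0.57. Lower levels without overlap, as in Syn2, Slc17a7 and Napb, were found in 5.91% of all genes in breast against lung, of 14.9% without overlap in either direction. Slc17a6, VGLUT2 of thalamus and other subcortical regions, averaged 96.2 ± 31.6 CPM in melanoma libraries, 69.8 ± 18.5 in breast libraries and 77.5 ± 18.9 in lung libraries and was not called.

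The mean log2 ratio of Slc17a6 to Slc17a7 was -3.43 ± 0.15 in melanoma libraries, -3.44 ± 0.44 in breast libraries and -3.94 ± 0.42 in lung libraries (SD, n = 6 each). Lung replicate 9 and breast replicate 16 had the lowest values, -4.79 and -4.27. The melanoma and lung means differed by 0.51 (two-sided exact permutation test, p = 0.00433, adjusted p = 0.104), and the breast and lung means by 0.51 (p = 0.0693, adjusted p = 0.277). Marker sums of the regions known for each transporter overlapped between the models: cortex and hippocampus markers summed to 99.7 to 269 CPM in melanoma, 79.7 to 184 in breast and 172 to 255 in lung libraries, and thalamus markers to 141 to 322 in melanoma, 137 to 315 in breast and 177 to 285 in lung libraries. In breast against lung the cortex and hippocampus list had a median log2 fold change of -0.41, with 1 of 6 genes called lower. Of all genes 7.16% were called lower there. The thalamus list had a median of -0.03 with 0 called. In melanoma against lung these medians were 0.09 and 0.17, with 0 called in either list. The part of these regions in the ratio was not tested. In all, 8 ratios of related members were compared in 3 comparisons, and 0 of the 24 exact tests passed after adjustment, where the smallest p that 6 against 6 libraries allow is 0.00216. In these exact permutation tests the lowest adjusted p after that of the transporters was 0.13, shared by Vamp1 to Vamp2 in breast against lung (difference 0.26, p = 0.0217), Rims2 to Rims1 in breast against lung (-0.22, p = 0.0217) and Rims2 to Rims1 in melanoma against breast (0.29, p = 0.0152). Without breast replicate 16 the ratios of Vamp1 to Vamp2 in breast against lung (0.33) and of Slc17a6 to Slc17a7 in melanoma against lung (0.51) and breast against lung (0.67) passed (exact permutation test, adjusted p = 0.0346 each). The melanoma against lung comparison holds no breast library. Its difference and its unadjusted p of 0.00433 by the exact permutation test were therefore unchanged. Only its adjustment moved, with the p-values of the breast comparisons.

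Among the vesicle membrane proteins, Sv2b was called and Sv2a, Sv2c and Syp were not. Sv2b, an SV2 glycoprotein of excitatory terminals, had a lowest, median and highest level of 225, 303 and 389.9 CPM in melanoma libraries, 147, 235 and 244 CPM in breast libraries, and 228, 293 and 389.5 CPM in lung libraries. The ranges overlapped, with 4 of 6 melanoma libraries above every breast library. Sv2b was higher in melanoma than in breast by a log2 fold change of 0.49 ± 0.17 (SE, edgeR adjusted p = 0.0386), and the call was lost without melanoma replicate 6 or breast replicate 17. Syp averaged 1263 ± 254 CPM in melanoma libraries, 1032 ± 143 in breast libraries and 1275 ± 141 in lung libraries (SD, n = 6 each). Sv2a, the binding site of the antiepileptic drug levetiracetam, averaged 390.5 ± 139.7 CPM in melanoma, 279 ± 75.1 in breast and 351 ± 76.1 in lung libraries, and Sv2c, enriched in basal ganglia, 24.6 ± 12.4 CPM in melanoma, 16.6 ± 6.44 in breast and 21.3 ± 6.92 in lung libraries.

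No gene of the complexins, of the active zone or of membrane recovery passed in any comparison. Cplx1 averaged 536 ± 166 CPM in melanoma, 434 ± 95.9 in breast and 479.9 ± 82.2 in lung libraries and Cplx2 753 ± 277 CPM in melanoma, 522 ± 118 in breast and 599 ± 145 in lung libraries (SD, n = 6 each). Bsn, the giant scaffold bassoon, had a lowest, median and highest level of 26.6, 202 and 306 CPM in melanoma libraries, 40.3, 115 and 183 CPM in breast libraries, and 72.2, 114 and 244 CPM in lung libraries. Piccolo, Pclo, had 24.6, 119.5 and 175 CPM in melanoma libraries, 38.7, 66.4 and 112 CPM in breast libraries, and 42.5, 74.3 and 147 CPM in lung libraries. In both scaffolds the melanoma libraries spanned the whole range of the other models. Their log2 fold changes in melanoma against breast, 0.79 ± 0.47 for Bsn and 0.72 ± 0.41 for Pclo, were the largest of the list after Syt4 and were not called (SE, edgeR adjusted p = 0.219 and 0.2).

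The priming factor Unc13a averaged 209 ± 106 CPM in melanoma libraries, 136 ± 58.1 in breast libraries and 153 ± 54.0 in lung libraries, and Unc13b 34.8 ± 13.2 CPM in melanoma, 21.5 ± 7.55 in breast and 28.9 ± 5.67 in lung libraries (SD, n = 6 each). The RIM genes had 136 ± 59.5 CPM in melanoma, 106 ± 22.5 in breast and 106 ± 36.9 in lung libraries for Rims1 and 86.8 ± 27.9 CPM in melanoma, 58.5 ± 12.5 in breast and 67.9 ± 22.7 in lung libraries for Rims2. Rab3a, which brings vesicles to RIM, had 402 ± 73.4 CPM in melanoma, 339 ± 43.2 in breast and 407 ± 42.0 in lung libraries, and its effector rabphilin, Rph3a, 324 ± 132 CPM in melanoma, 242 ± 67.0 in breast and 267 ± 73.9 in lung libraries. These genes were lowest in breast libraries by their means, except Rims1, with a mean of 106 CPM in both breast and lung libraries. The differences lay within the spread of the libraries. The recovery genes behaved likewise, with Dnm1 at 834 ± 279 CPM in melanoma, 617 ± 158 in breast and 758 ± 137 in lung libraries, Synj1 at 275 ± 102 CPM in melanoma, 192 ± 56.4 in breast and 244 ± 60.8 in lung libraries, and Amph at 174 ± 57.9 CPM in melanoma, 127 ± 35.0 in breast and 177 ± 22.1 in lung libraries.

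**Figure D3:**
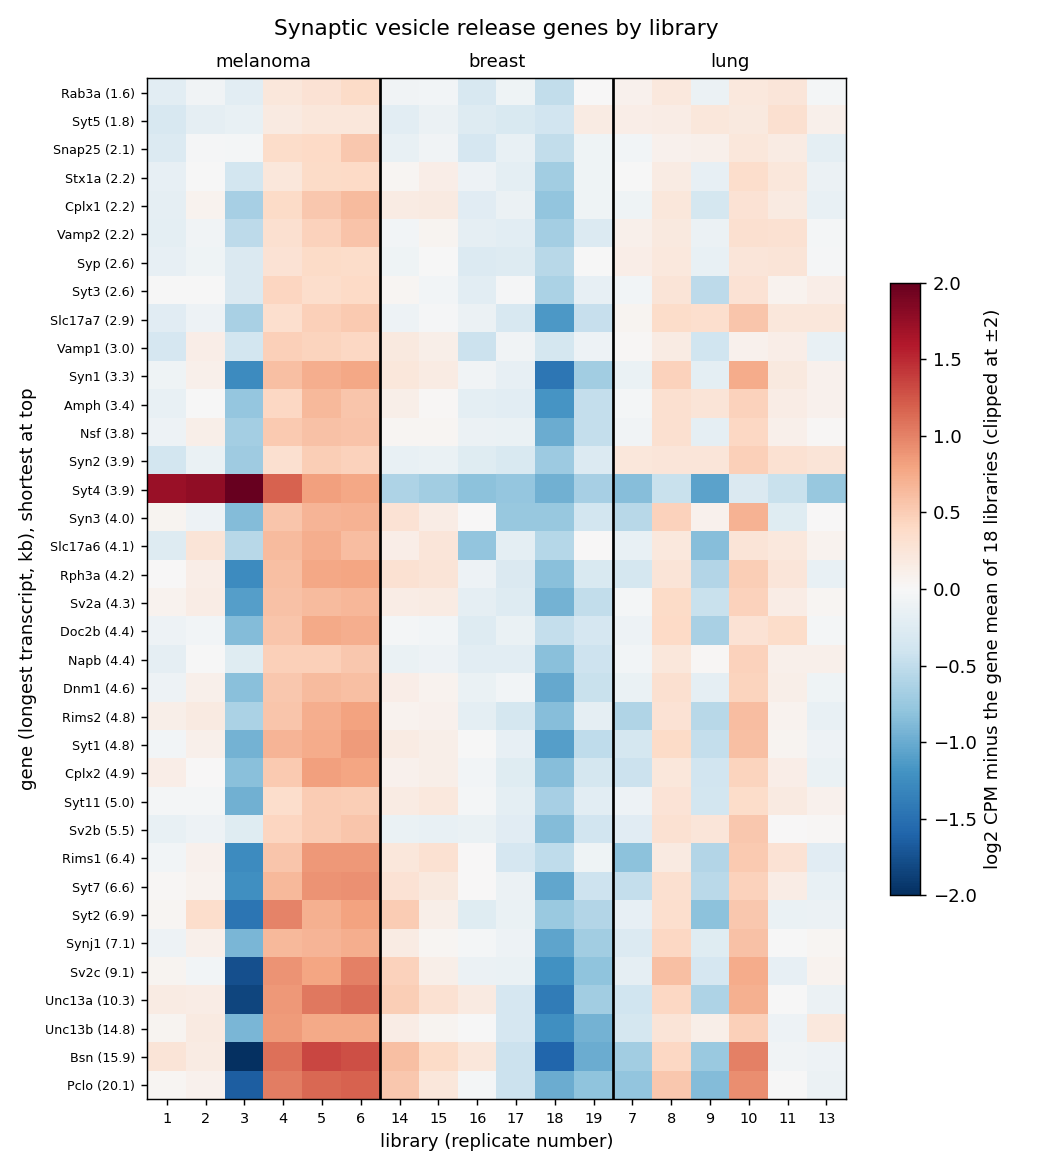
Log2 CPM of each gene minus its mean over the 18 libraries (colours from -2 to 2), with libraries by model across and genes from the shortest to the longest transcript down the page. Melanoma replicate 3 and breast replicate 18 are low in nearly all genes and most so in the long ones, while Syt4 is high in the melanoma libraries.

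Within each model the members moved largely together, by library. Melanoma replicate 3 was the lowest of its model in 33 of 36 genes, breast replicate 18 in 34 and lung replicate 9 in 23. Melanoma replicate 6 was the highest in 20, breast replicate 14 in 19 and lung replicate 10 in 31. The heat map of the members by library shows that these libraries moved most genes together.

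The genes with long transcripts spread most. Bsn, with a longest transcript of 15938 bases, had an 11.48-fold range among melanoma libraries, 4.56-fold among breast libraries and 3.37-fold among lung libraries. Snap25, of 2116 bases, had a 1.76-fold range among melanoma libraries, 1.33-fold among breast libraries and 1.34-fold among lung libraries. Over the 36 genes, Spearman's rho of the range with transcript length was 0.80 in melanoma libraries, 0.64 in breast libraries and 0.74 in lung libraries, given as a description since all genes share the same libraries. The rho of the log2 fold change with length was 0.68 in melanoma against lung, 0.16 in breast against lung and 0.73 in melanoma against breast. It was 0.71, 0.57 and 0.73 in these comparisons without melanoma replicate 3 and breast replicates 18 and 19, and 0.27, 0.38 and -0.21 once each library's length trend was removed. The part of RNA quality in these values was not tested.

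**Figure D4:**
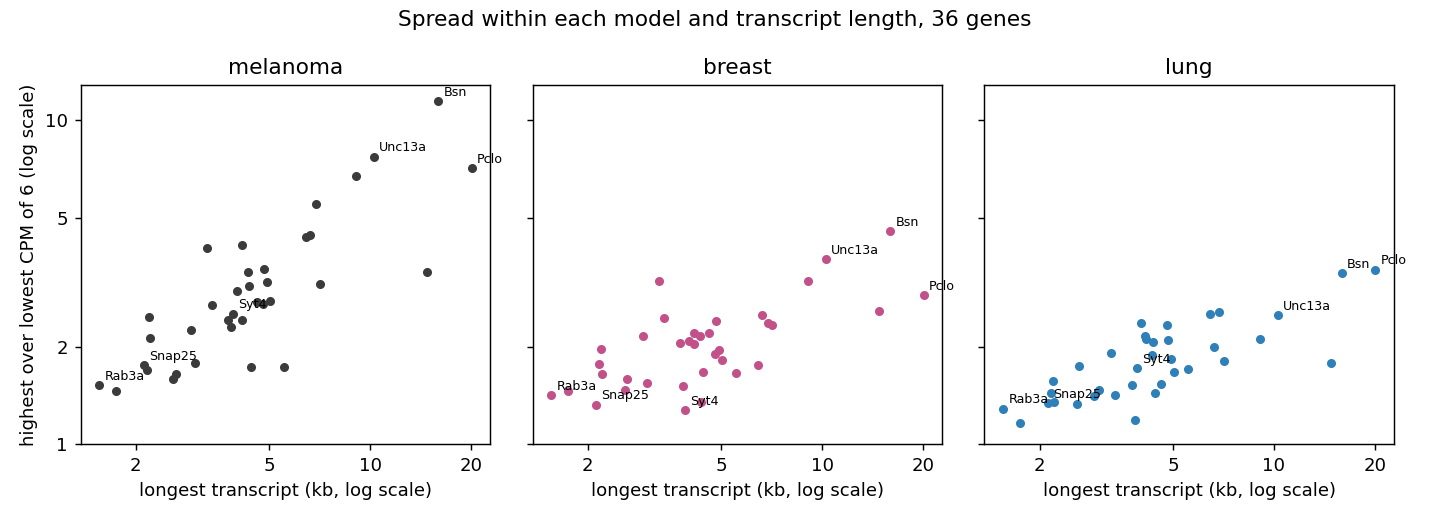
Highest over lowest CPM of the 6 libraries of a model (log scale) against the longest annotated transcript in kilobases (log scale) for each of the 36 genes. The range grows with length in all 3 models, up to 11.48-fold for Bsn in melanoma libraries.

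How many of the genes differed between melanoma and breast rested on 1 library. Without melanoma replicate 3, 35 of 36 were called higher in melanoma than in breast, all but Syt5, with a median log2 fold change of 0.64. Of all genes tested 46.6% were called there in either direction, and 23.4% were called lower in melanoma. That fit kept breast replicates 18 and 19, with length slopes of -0.29 and -0.23. The melanoma libraries in it had slopes of 0.05 to 0.21. The part of transcript length in these 35 calls was not tested. Bsn then had a log2 fold change of 1.08 ± 0.38 (SE, edgeR adjusted p = 0.0263), Syt1 0.75 ± 0.23 (edgeR adjusted p = 0.0158) and Syp 0.41 ± 0.13 (edgeR adjusted p = 0.017). Without melanoma replicate 3 and breast replicates 18 and 19 together, 16 of 36 were called higher in melanoma. Of all genes 34.2% were called there in either direction, and 19.3% were called lower in melanoma. In that fit 3 were called in melanoma against lung (Syt4, Syt2 and Unc13a, all higher) and 3 in breast against lung (Syn2, Slc17a7 and Syt5, all lower), where 33.6% and 25.0% of all genes were called. Syt4 was called in both melanoma comparisons under every alternative run.

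Pan-neuronal markers had medians of the same sign as the release genes in each comparison, with few calls. Of 11 tested, 0 were called in melanoma against lung, 0 in breast against lung, and 1, Gap43, lower in melanoma against breast (edgeR's quasi-likelihood test), where the list spanned -0.46 to 0.52. At an unadjusted p under 0.05 there were 1, 4 and 3. The list had median log2 fold changes of 0.13, -0.27 and 0.33 beside the 0.16, -0.27 and 0.46 of the release genes. The mean log2 level of the 35 members other than Syt4 exceeded that of the pan-neuronal list by -0.01 to 0.44 in melanoma libraries. The excess was -0.17 to 0.30 in breast libraries and 0.10 to 0.43 in lung libraries, so that the models overlapped. It was lowest in melanoma replicate 3 (-0.01) and breast replicates 18 (-0.17) and 19 (-0.10), and the remaining libraries had 0.28 to 0.44 in melanoma and 0.18 to 0.30 in breast. With the pan-neuronal level as a covariate, 4 members were called in melanoma against lung (Syt4 and Rims2 higher, Syn2 and Slc17a7 lower), 7 in breast against lung (6 lower, with Rims1 higher) and 4 in melanoma against breast. Of all genes 35.3%, 26.8% and 38.3% were called in these comparisons in that fit, more than without the covariate. The median log2 fold change of the members was then 0.06 in melanoma against lung, -0.06 in breast against lung and 0.09 in melanoma against breast, with 24, 15 and 28 of 36 above 0. Rims1 in breast against lung had a log2 fold change of 0.37 in that fit (edgeR adjusted p = 0.0261), and of -0.01 without the covariate.

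Other genes of vesicle release and recycling had medians of the same sign as the members in each comparison, with stronger single genes. Of 66 listed, 64 were tested. In melanoma against lung 4 were higher and 3 lower, in breast against lung 0 higher and 10 lower, and in melanoma against breast 11 higher and 2 lower, with median log2 fold changes of 0.06, -0.28 and 0.38. Of all genes tested, 8.51% were called higher and 14.7% lower in melanoma against lung. The shares were 11.2% and 7.16% in breast against lung, and 9.76% and 19.2% in melanoma against breast. Among the genes with the smallest p were Syt9 and Stx12, higher in melanoma in both of its comparisons, Slc17a8, Cltb and Cplx3, lower in melanoma than in lung, and Slc17a8, Rab27b and Cplx3, lower in breast than in lung. Picalm and Snap29 were the pair lower in melanoma than in breast.

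Slc17a8, the transporter VGLUT3 of scattered neurons that also use other transmitters, had a lowest, median and highest level of 1.18, 4.08 and 6.36 CPM in melanoma libraries, 2.52, 2.999 and 3.74 CPM in breast libraries, and 11.7, 14.3 and 16.4 CPM in lung libraries. All lung libraries lay above all others. The log2 fold change was -1.83 ± 0.25 in melanoma against lung (SE, edgeR adjusted p = 1.53e-05) and -2.23 ± 0.26 in breast against lung (edgeR adjusted p = 3.40e-06). Cplx3, a complexin of retinal ribbon synapses and of some cortical neurons, averaged 11.5 ± 2.72 CPM in melanoma libraries, 10.3 ± 1.42 in breast libraries and 17.98 ± 4.83 in lung libraries (SD, n = 6 each). It was lower than in lung by -0.65 ± 0.18 in melanoma (SE, edgeR adjusted p = 0.0106) and -0.81 ± 0.18 in breast (edgeR adjusted p = 0.003).

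Syt9, another calcium sensor of fast release, averaged 49.7 ± 9.03 CPM in melanoma libraries, 17.7 ± 5.56 in breast libraries and 30.3 ± 3.85 in lung libraries (SD, n = 6 each). The melanoma libraries lay above all others, and melanoma replicate 3 had the highest level, 67.3 CPM, as for Syt4. The log2 fold change of Syt9 was 0.71 ± 0.18 in melanoma against lung (SE, edgeR adjusted p = 0.00475) and 1.48 ± 0.18 in melanoma against breast (edgeR adjusted p = 2.57e-06).

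Vamp3, a synaptobrevin relative found outside neurons as well, had no read in any of the 18 libraries, as for Tubb3. The sources used here do not say how reads of overlapping genes were counted.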

How the data were processed

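Counts per gene and library were deposited by the authors as raw counts per Ensembl gene, and a second deposited table holds CPM for 16925 genes. The genome build was GRCm39 and reads were demultiplexed with bcl2fastq, per the submitters' processing notes, and poly(A)+ directional libraries were made, per the labels' protocols. No aligner, counter, annotation or strand setting is named there (not given in the sources used here). Whole reads were recovered from 100% of the deposited CPM values (tolerance 0.01), of which 99.76% equalled the counts over 15383 genes matched by symbol.

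Symbols, transcript lengths and chromosomes came from GENCODE M21 by gene ID without version (93.99% of IDs, 99.85% of reads). Counts of 17174 genes passing filterByExpr (99.84% of reads) were fitted with edgeR 4.0.16 (R 4.3.3), robust quasi-likelihood, TMM factors, 1 coefficient per model over all 18 libraries, adjusted by Benjamini-Hochberg across these genes. CPM use TMM-scaled sizes. List levels are means of log2(CPM + 0.5). Ratios of related genes used exact permutation tests (SciPy 1.17.1). Replicates are separate brains. The members and lists were chosen with earlier results of these data known. All 36 members are named, and of the other pathway genes at most the 3 with the smallest p per direction and comparison. A gene that this rule names is not reported here. Promoters came from RefSeq. The fit was tested on simulated data. Alternatives were other scalings, filters, tests (DESeq2 1.42.0, limma 3.58.1), fits of 12 libraries, left-out libraries, removal of the length trend and a pan-neuronal covariate.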

Additional observations from a re-analysis of the deposited data

Results flagged for a closer look

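Of 108 groups of 6 libraries examined (36 genes in 3 models), 2 had a library set far apart from its others, where chance alone would give about 1 in 20 groups. Both concerned Syn2. In the breast model replicate 18 had 172.27 CPM, with the other libraries at 232 to 261 CPM. In the lung model replicate 10 had 397.15 CPM, with the other libraries at 333 to 351 CPM. By rank, breast replicate 18 was the lowest of its model in 34 of the 36 genes and lung replicate 10 the highest in 31. Neither library was set far apart from its others in a gene other than Syn2.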

How the results depend on the processing

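No paired analysis was possible because the library numbers are not shared between the models. Leaving out each library in turn gave 1 to 1 members called in melanoma against lung, 0 to 7 in breast against lung, 3 to 35 in melanoma against breast, 1 to 28 for any difference, and 0 to 3 paralogue ratios. Breast against lung gave 0 without lung replicate 10, 1 without lung replicate 8 or 9 or breast replicate 17, and 7 without melanoma replicate 3. For any difference among the models, 3 members were called, and 7 were called with DESeq2 size factors, upper quartile scaling, the DESeq2 test, the length trend removed, the pan-neuronal covariate or the reads recovered from CPM (chosen after seeing the data), 6 with library totals or limma on the deposited CPM at pseudocount 1 or 0.1, 5 with limma voom, and 11 without melanoma replicate 3 and breast replicates 18 and 19. Breast against lung gave 5 with upper quartile scaling, the DESeq2 test or the recovered reads, 6 with the length trend removed, 7 with the pan-neuronal covariate and 9 with only the 12 libraries compared. Melanoma against breast gave 7 with the DESeq2 test, 1 with only the 12 libraries compared and 16 without those 3 libraries. Melanoma against lung gave 3 without those 3 libraries and 4 with the pan-neuronal covariate. With that covariate Rims1 in breast against lung was 0.3675 instead of -0.0064. The share of all genes called moved as well. For any difference it was 35.8%, and it ranged from 32.0% to 36.9% with the other scalings and tests on counts or CPM, and was 39.1% with the recovered reads, 41.9% with the length trend removed, 48.1% without those 3 libraries and 49.3% with the covariate. In breast against lung it was 18.3%, and below that with the DESeq2 test, 18.4% with upper quartile scaling, 19.7% with the recovered reads, 22.7% with the length trend removed, 24.6% with 12 libraries and 26.8% with the covariate, and 15.2% to 17.2% without lung replicate 8, 9 or 10 or breast replicate 17. In melanoma against breast it was 28.9%, and 25.3% with the DESeq2 test, 24.2% with 12 libraries and 34.2% without those 3 libraries. In melanoma against lung it was 23.2%, and 33.6% without those 3 libraries and 35.3% with the covariate. Without melanoma replicate 3 alone the share was 23.7% in breast against lung, 46.6% in melanoma against breast and 50.3% for any difference. The cause of these shifts was not tested. Syt4 in the melanoma comparisons held its side of the threshold in all of them. The half-width of the 95% interval, up to 0.98 on the log2 scale, limits what depth and 6 libraries can show.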
